A study of Homo sapiens with 9 samples.

Results

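The comparison of siControl with siGFP asks what differs between a pair of control siRNAs in the same cells. It uses 4 of the 9 small RNA libraries: HEK293E cells transfected with siGFP, replicates 1 and 2, and HEK293E cells transfected with siControl, replicates 1 and 2. HEK293E is a derivative of the human embryonic kidney line HEK293. The siGFP duplex carries the name of a jellyfish reporter gene that human cells lack. The labels name siControl only, and its sequence is not given in the sources used here. Libraries were chosen by their titles and paired by replicate number, which matches the experimental group in the labels. Cells for all 4 libraries were transfected with lipid on days 0 and 3 and harvested on day 5. The other HEK293E libraries received siRNAs against ERH, namely siERH-3 (both replicates) or siERH-5 (replicate 2 alone), and are used here only to place the control values. Of the 1485 hairpins in the count table, 730 averaged 10 counts or more over the 4 control libraries and were tested. Of the 755 that were not tested, 100 had no count in any of the 4. The hairpins nearest to that limit were 6 with a mean of 10.0 counts on the inside, mir-581 (7 to 11 counts) among them, and 6 with a mean of 9.75 on the outside, mir-3161 (6 to 11 counts) among them.

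MicroRNAs are cut from hairpins in primary transcripts by the nuclear Microprocessor of DROSHA and DGCR8 and then by DICER, and they guide Argonaute proteins to messenger RNAs through the seed near their 5′ end. An siRNA is loaded into the same Argonaute proteins, and a control siRNA is meant to load without a target gene. ERH is a partner of DGCR8 that is known to help process weak hairpins in clusters such as mir-15a beside mir-16-1. Each row of the table is a hairpin, so the 5p and 3p arms were not separated, and every change is relative to the other hairpins of a library. In bulk libraries, less miRNA per cell and fewer cells that hold it cannot be told apart.

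Hairpins of miR-34, miR-199, mir-214 and mir-548f are among those described first below, and miR-449 is listed with miR-34. Their mature sequences, from RefSeq (GRCh38.p14), are shown with the seed, bases 2 to 8, in capitals. They show which of these miRNAs share a seed. miR-34c-5p is left out because the RefSeq sequences used here lack it.
hsa-miR-34a-5p: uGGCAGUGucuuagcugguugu
hsa-miR-34b-5p: uAGGCAGUgucauuagcugauug
hsa-miR-449a: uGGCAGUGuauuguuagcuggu
hsa-miR-449b-5p: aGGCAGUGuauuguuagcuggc
hsa-miR-199a-3p: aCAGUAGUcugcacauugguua
hsa-miR-199b-3p: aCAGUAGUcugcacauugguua
hsa-miR-214-3p: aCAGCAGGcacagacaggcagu
hsa-miR-548f-3p: aAAAACUGuaauuacuuuu
miR-34a-5p, miR-449a and miR-449b-5p have the same 7 seed letters, which begin at base 2. In miR-34b-5p the same letters begin at base 3. The miR-199a and miR-199b 3p arms are identical, so their 3 hairpins do not give independent values.

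The libraries held 2609929 to 3248481 counts, and 1208 to 1263 hairpins had at least 1 count. Hairpins of the HOX clusters that mark kidney-derived lines were abundant: mir-10a had 36915 to 68378 counts and mir-196b 18110 to 29458. Among markers of other cells, mir-206, mir-1-1 and mir-133a-1 of muscle had 0 to 2, 17 to 84 and 48 to 75 counts. In blood, mir-223 of myeloid cells had 1 to 25, mir-150 of lymphocytes 5 to 15, mir-155 70 to 111 and mir-142 239 to 442. The highest mir-223 count was in siGFP replicate 2, and the other 3 libraries had 1 count each. The endothelial marker mir-126 had 9582 to 12972 counts and erythroid mir-486-1 had 2360 to 4523. Erythroid mir-144 and mir-451a had 49 to 65 and 54 to 105, and liver mir-122 had 2 to 40. For mir-143 and mir-145 of smooth muscle the counts were 51 to 178 and 49 to 71. Those of mir-203a and mir-205 of skin were 42 to 60 and 4 to 11. The labels do not say that replicates came from separate cultures, so p-values apply to these libraries only.

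The control siRNAs differed less than the replicates did. The median hairpin was 1.2-fold apart between siControl and siGFP in replicate 1 and 1.21-fold in replicate 2, once the median of all hairpins was taken out. Between replicates 1 and 2 it was 1.33-fold apart within siGFP and 1.32-fold within siControl. At least 1.5-fold apart were 110 and 132 hairpins between the siRNAs, in replicates 1 and 2, against 247 within siGFP and 228 within siControl. The curves of these ratios show the same order over most of the range.

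**Figure D1:**
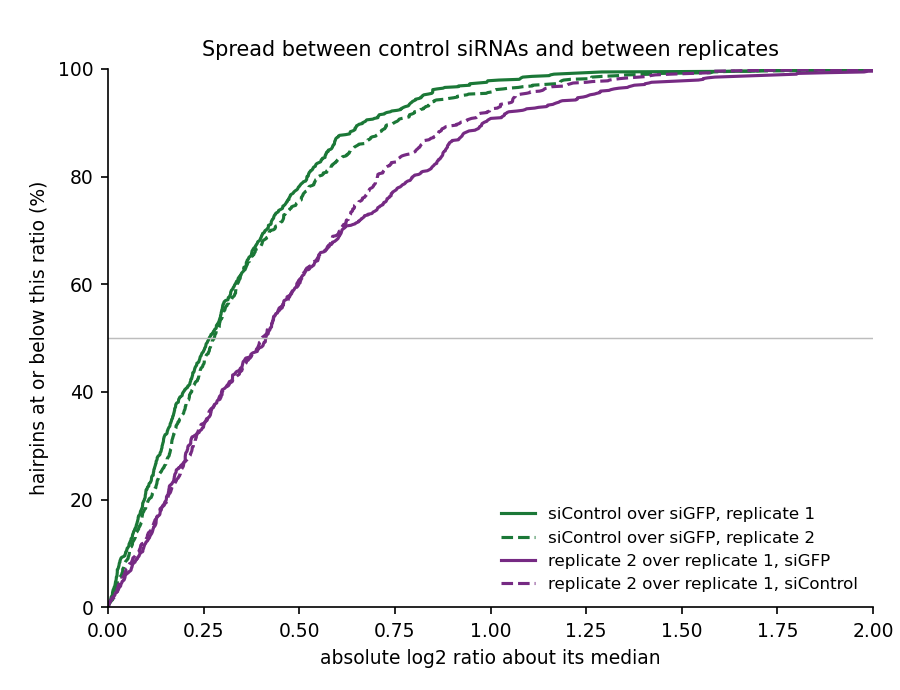
Cumulative share of the 730 tested hairpins (vertical axis, percent) by absolute log2 ratio of CPM + 1 about the median ratio (horizontal axis), for siControl over siGFP in each replicate (green) and replicate 2 over replicate 1 within each siRNA (purple). The grey line at 50% crosses the green curves at 0.265 and 0.278 and the purple curves at 0.412 and 0.403.

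Differences between the siRNAs recurred in part. In 509 of 730 hairpins (69.7%) siControl stood on the same side of siGFP in both replicates. Across hairpins, which are not independent and share the 4 libraries, the log2 ratios of the replicates had a Pearson r of 0.509 and a Spearman rho of 0.481, and r was 0.698 among the 392 hairpins that averaged 100 counts or more. At least 1.5-fold lower in siControl in both replicates were 28 hairpins (3.84% of those tested), and at least 1.5-fold higher in both were 15 (2.05%). A further 6 were at least 1.5-fold apart in opposite directions. With edgeR's quasi-likelihood test and the replicate number as a block, 61 hairpins were lower in siControl (8.36%) and 72 were higher (9.86%), 133 in all (18.2%), at a Benjamini-Hochberg adjusted p under 0.05. Of these, 13 of the lower and 7 of the higher hairpins were at least 2-fold apart. All 61 lower and 69 of the 72 higher hairpins had that direction in both replicates, the exceptions being let-7a-2, let-7f-1 and let-7f-2. The calls were made from these same libraries, so a shared direction among them is no separate sign that differences recur.

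The number of calls rests on the pairing and on other settings. That fit has 1 residual degree of freedom, and edgeR pooled its variance over hairpins (infinite prior degrees of freedom). Its SEs and p-values therefore do not follow the spread of each single hairpin. Without the block edgeR called 0 of 730 hairpins, with 24 at an unadjusted p under 0.05. Adjusted p-values were then 0.425 or more for all hairpins named below. With the block kept, edgeR called 0 hairpins at a mean of at least 100 counts. It called 41 with DESeq2 size factors and 35 with the GC trend of each library removed. In a fit of all 7 HEK293E libraries with the block, 14 hairpins passed (1.92%), 5 lower and 9 higher in siControl, and all 14 were among the 133. The siERH siRNAs had terms of their own there, so this difference rests mainly on the same 4 control libraries. That fit is therefore no independent check, and overlap with the 133 was likely beforehand. These 14 are described first. Their log2 differences, SEs and adjusted p-values are from the fit of all 7 libraries unless another fit is named. Their CPM are from the scaling of the 4 control libraries. They were picked by their difference in these same libraries, so groups that do not overlap add no support. How many of the 730 hairpins had groups without overlap was not counted. DESeq2's Wald test without the block called 4 hairpins, namely mir-34b, mir-34c, mir-548f-1 and mir-548f-4.

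**Figure D2:**
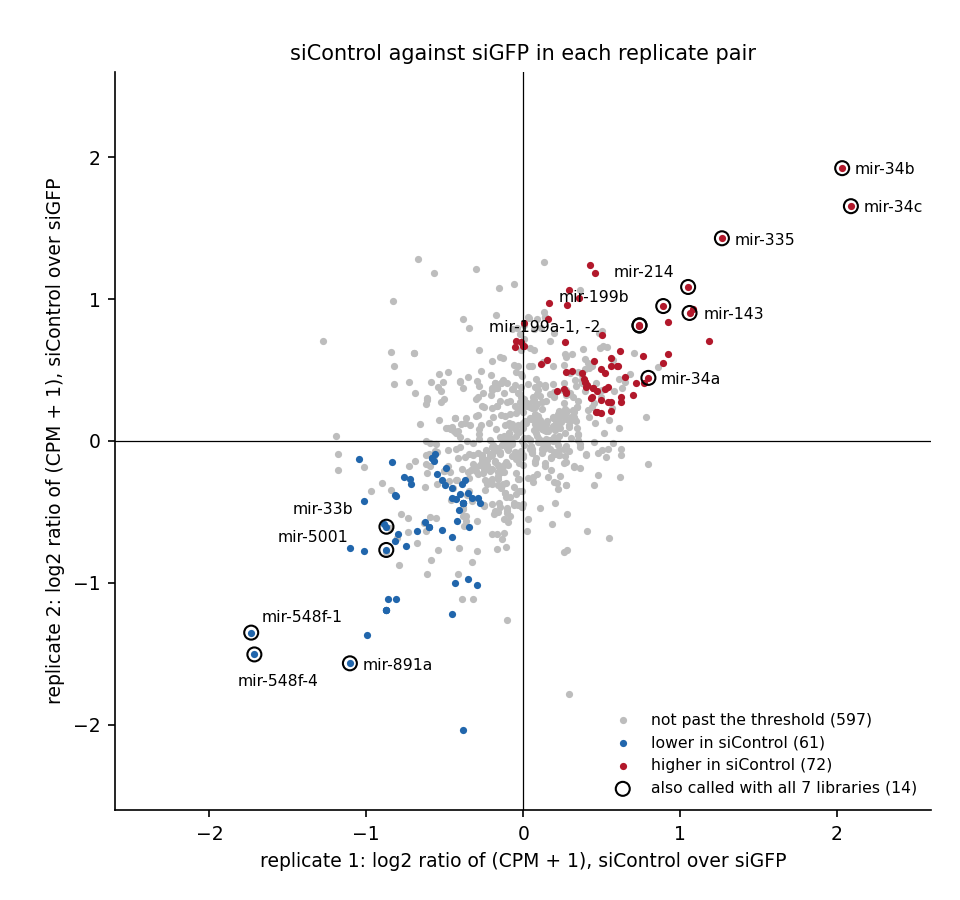
Log2 ratio of CPM + 1, siControl over siGFP, in replicate 1 (horizontal axis) and replicate 2 (vertical axis) for 730 hairpins, coloured by the test with the replicate block. The 14 ringed hairpins, called also with all 7 libraries, lie toward the upper right or lower left, with mir-34b and mir-34c at the top right and mir-548f-1 and mir-548f-4 at the lower left.

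The miR-34 genes were higher with siControl. These miRNAs are known targets of the transcription factor p53 and repress cell-cycle genes. mir-34b lies at chr11:111512938-111513021 on the plus strand (hg38), in no annotated gene on its strand, and mir-34c follows it at chr11:111513439-111513515. mir-34b had 27 and 29 counts with siGFP and 103 and 126 with siControl, in replicates 1 and 2. In CPM, counts scaled to a common library size with TMM factors, this was 7.43 and 11.4 against 33.5 and 46.0. Both siControl libraries were above both siGFP libraries, by 4.09-fold and 3.79-fold within the pairs. mir-34c had 36.3 and 26.4 CPM with siGFP and 158 and 85.1 CPM with siControl, with no overlap. In the fit of all 7 libraries the log2 differences were 2.09 ± 0.25 (SE) for mir-34b and 1.93 ± 0.22 for mir-34c, with n = 2 libraries a group and an edgeR adjusted p of 0.000487 for each. In the 4 control libraries alone, without the block, their edgeR adjusted p-values were 0.425 and 0.47. mir-34a (chr1:9151668-9151777, an exon of the non-coding gene MIR34AHG) is far more abundant, with 7056 and 8050 CPM with siGFP and 12270 and 10960 CPM with siControl. Its log2 difference was 0.62 ± 0.13, and its edgeR adjusted p was 0.0308 with all 7 libraries.

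The miR-449 hairpins lay on the other side of siGFP. miR-449a and miR-449b-5p share the seed of miR-34a-5p, and miR-449c-5p that of miR-34b-5p. mir-449b had 23.9 and 31.9 CPM with siGFP and 18.5 and 15.7 CPM with siControl and was lower in the paired edgeR fit (log2 difference -0.68 ± 0.24, adjusted p = 0.031), but not with all 7 libraries. The values of mir-449a were 206 and 192 CPM with siGFP against 174 and 159 CPM with siControl, and those of mir-449c were 107 and 102 against 81.6 and 89.1. Neither passed the paired test (edgeR adjusted p = 0.209 and 0.194). All 3 miR-449 hairpins were below siGFP in both replicates, and all 3 miR-34 hairpins above it.

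The libraries of ERH knockdown place these values. On the scale of all 7 libraries, mir-34b had 102 and 103 CPM in the siERH-3 libraries and 61.7 CPM with siERH-5, above every control library. mir-34c had 259 and 241 CPM with siERH-3 and 150 CPM with siERH-5. Against siGFP the log2 difference of siERH-3 was 3.37 for mir-34b and 2.90 for mir-34c, and against siControl it was 1.26 and 0.98. These comparisons share the siERH-3 libraries, and edgeR's adjusted p with the block was 1.97e-06 and 1.17e-06 against siGFP and 0.0141 and 0.0346 against siControl. Both hairpins were picked by the difference between the controls, so a gap between these comparisons was set beforehand. The same holds for the other picked hairpins compared with siERH-3 below. For mir-34a neither passed (log2 difference 0.43, adjusted p = 0.136, and -0.20, adjusted p = 0.171, by edgeR). In the single K562 siGFP library the counts were 86 for mir-34a, 35 for mir-34b and 68 for mir-34c.

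The 3 miR-199 hairpins and mir-214 were higher with siControl. mir-199a-2 (chr1:172144535-172144644) and mir-214 (chr1:172138798-172138907) are exonic in DNM3OS, a non-coding gene of mesenchymal tissue, on the minus strand. mir-214 had 17.1 and 24.8 CPM with siGFP and 36.4 and 53.7 CPM with siControl, and its log2 difference was 1.11 ± 0.21. mir-199b, on chromosome 9 in no annotated gene on its strand, had 90.8 and 118 CPM with siGFP and 169 and 229 CPM with siControl. Neither had an overlap between the groups. mir-199a-2 and its copy mir-199a-1 on chromosome 19 both had 98.2 and 124 CPM with siGFP, against 165 and 219 CPM with siControl. The edgeR adjusted p with all 7 libraries was 0.0217 for mir-214, 0.0168 for mir-199b and 0.0308 for both mir-199a copies.

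mir-143, which marks smooth muscle and fibroblasts and is exonic in CARMN on chromosome 5, had 27.2 and 20.1 CPM with siGFP and 57.9 and 38.4 CPM with siControl. Its log2 difference was 1.01 ± 0.22, with an edgeR adjusted p of 0.0308 with all 7 libraries. Its neighbour mir-145 had 15.1 and 19.3 CPM with siGFP and 23.1 and 24.8 CPM with siControl, and did not pass the paired test (edgeR adjusted p = 0.149). Both marker lists that follow are read beside all 730 tested hairpins, of which 9.86% were called higher and 8.36% lower. Over the list of 12 markers of muscle, liver, endothelium, smooth muscle and skin, 10 were tested. Of these 3 were higher in siControl, mir-143 and the copies mir-1-1 and mir-1-2, which make 2 names, and none was lower. The list summed to 11940 and 11627 counts with siGFP and 10304 and 13453 with siControl, most of it mir-126. Over the 8 blood markers, 7 were tested, the 2 copies of mir-486 were higher and none was lower. The median log2 difference of the list was 0.0046, and 3 members that did not pass were below siGFP in both replicates, namely mir-150 (log2 difference -0.95 ± 0.46), mir-142 (-0.30 ± 0.16) and mir-451a (-0.14 ± 0.22). That list summed to 8699 and 5387 counts with siGFP and 9506 and 7334 with siControl. No marker in either list was at 0 in all 4 libraries, and the part of other cells' RNA in these results was not tested.

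mir-335, in an intron of the imprinted gene MEST on chromosome 7, had 5.23 and 6.29 CPM with siGFP and 13.98 and 18.63 CPM with siControl. Its counts were low, 16 to 51, and its log2 difference was 1.49 ± 0.29 (edgeR adjusted p = 0.0217 with all 7 libraries). The siERH-3 libraries were also above siGFP, with a log2 difference of 1.17 (edgeR adjusted p = 0.018), and not apart from siControl (-0.33, adjusted p = 0.255).

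Lower with siControl in both fits were 5 hairpins, of which the pair of mir-548f hairpins lay farthest from siGFP. mir-548f hairpins are primate-specific and derive from a DNA transposon. mir-548f-1 (chr10:54607874-54607957, minus strand, an intron of PCDH15) had 421 and 307 counts with siGFP and 105 and 128 with siControl. In CPM this was 116 and 121 against 34.1 and 46.8. mir-548f-4 (chr7:147378017-147378121, minus strand, in no annotated gene on its strand) had 89.7 and 85.8 CPM with siGFP and 26.6 and 29.6 CPM with siControl. The siGFP libraries lay close together in each case and the groups did not overlap. With all 7 libraries the log2 differences were -1.56 ± 0.19 and -1.64 ± 0.20, with an edgeR adjusted p of 0.000487 for each. In the 4 control libraries without the block the edgeR adjusted p was 0.466 and 0.425.

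Of the mir-548f copies, only mir-548f-1 and mir-548f-4 were called. The other copies had few counts, and a difference between copies was not tested. RefSeq gives the same miR-548f-3p for mir-548f-1, mir-548f-2 and mir-548f-4. mir-548f-2 had 18 and 13 counts with siGFP and 9 and 13 with siControl, and mir-548f-3 had 22 and 7 against 10 and 11, neither past the paired test (edgeR adjusted p = 0.527 and 0.633). mir-548f-5 had 10 and 2 counts with siGFP and 1 and 1 with siControl, and was not tested. Over all 72 rows named mir-548, 40 were tested, of which 2 were lower (1 name) and 4 were higher (2 names). Over all tested hairpins 8.36% were lower and 9.86% higher. The median log2 difference of the 40 was 0.15, against 0.04 over all hairpins tested. In the siERH libraries mir-548f-1 had 23.1 and 22.1 CPM (siERH-3) and 36.2 CPM (siERH-5), below both siGFP libraries. Its log2 difference of siERH-3 was -2.49 against siGFP and -0.94 against siControl (edgeR adjusted p = 4.79e-06 and 0.0316). In K562 with siGFP, mir-548f-1 had 0 of 2613890 counts, which allows up to 1.15 RPM, and mir-548f-4 had 2 counts.

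The other 3 lower hairpins were mir-33b, mir-5001 and mir-891a. mir-33b, in an intron of SREBF1 on chromosome 17, is known to act with its host in lipid synthesis. It had 1028 and 731 CPM with siGFP and 561.7 and 480.8 CPM with siControl (log2 difference -0.75 ± 0.17, edgeR adjusted p = 0.0389 with all 7 libraries). mir-5001, in an exon of TIGD1 on chromosome 2, had 201 and 140 CPM with siGFP and 109 and 81.8 CPM with siControl (-0.83 ± 0.17, edgeR adjusted p = 0.0301). mir-891a, of an X-linked group of hairpins known from the epididymis, had 15.1 and 19.3 CPM with siGFP and 6.50 and 5.85 CPM with siControl (-1.45 ± 0.28, edgeR adjusted p = 0.0217). None of the 3 had overlapping groups.

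**Figure D3:**
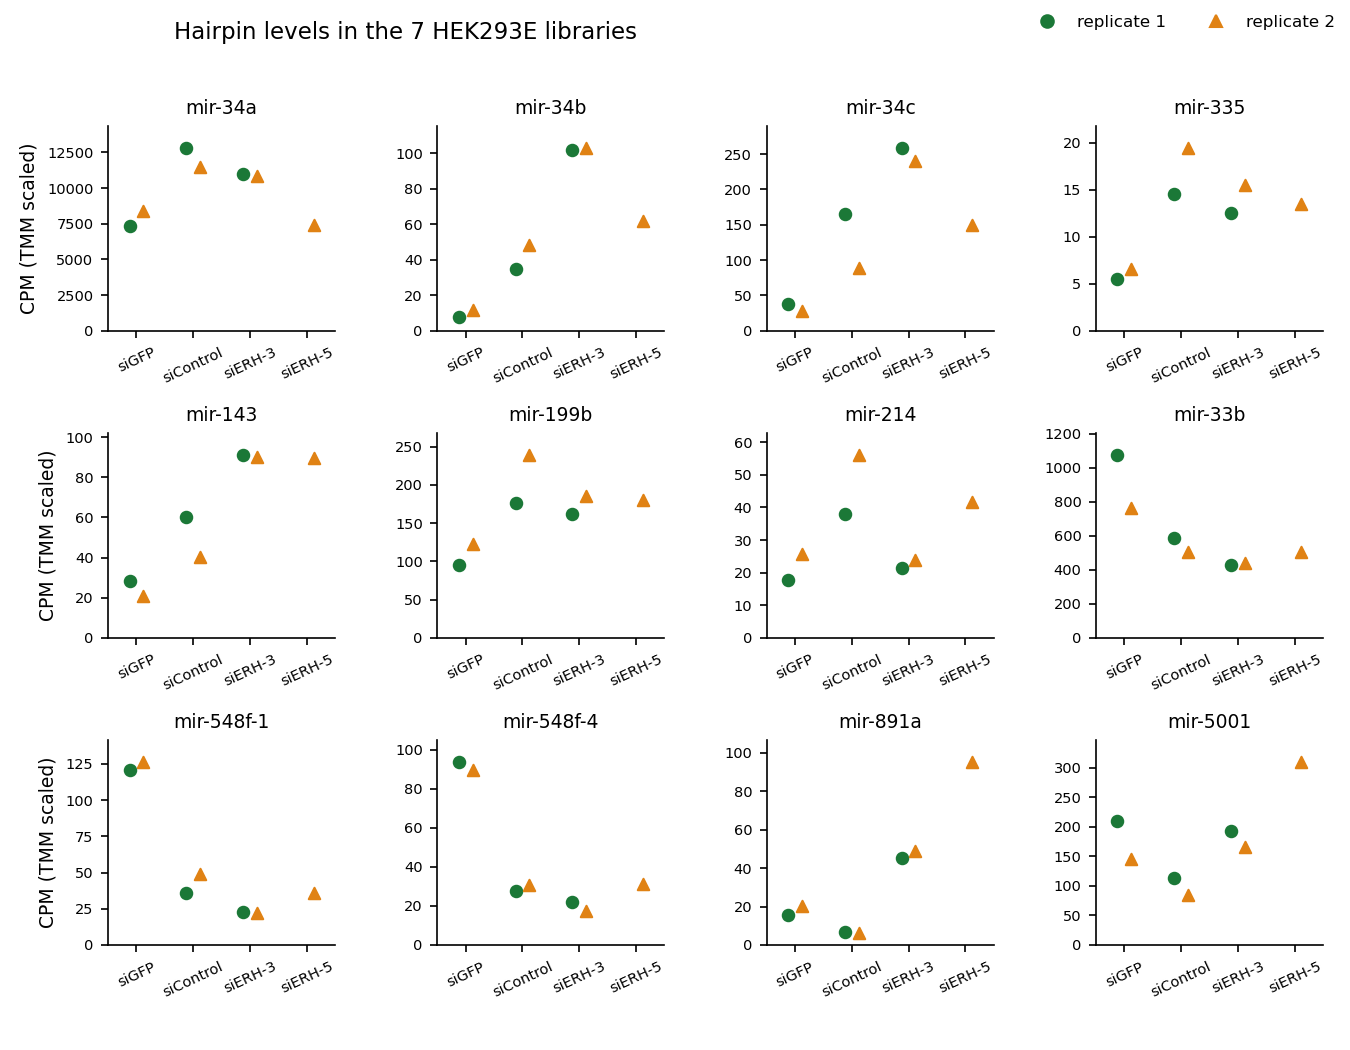
CPM (TMM scaled over the 7 HEK293E libraries, linear axes from 0) of 12 hairpins by siRNA, with replicate 1 as circles and replicate 2 as triangles, 1 point a library. The hairpins were chosen by their difference between these controls. In every panel both siControl points lie on the same side of both siGFP points. In the mir-34b and mir-34c panels the 3 siERH points lie above siGFP too.

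The siERH libraries stood on no fixed side of these pairs. For mir-34b, mir-34c, mir-335, mir-143, mir-199b, mir-33b, mir-548f-1 and mir-548f-4 all 3 siERH libraries were nearer, on the log2 scale, to the siControl library of their replicate than to its siGFP library. For mir-891a and mir-5001 all 3 were nearer to siGFP. Over the 14 hairpins, 11 were nearer to siControl in siERH-3 replicate 1, 9 in siERH-3 replicate 2 and 11 in siERH-5, against 55.3%, 49.7% and 48.5% of all 730 hairpins. The siERH-3 values were also compared with each control in turn. For single hairpins picked by the difference between the controls, the gap between these comparisons restates that difference and is no separate result. Against siGFP, 315 of 776 hairpins passed the paired edgeR test (40.6%), and against siControl 293 of 770 (38.1%). For mir-214 the log2 difference of siERH-3 was 0.04 against siGFP (edgeR adjusted p = 0.912) and -1.08 against siControl (adjusted p = 0.0204). For mir-5001 it was -0.01 (edgeR adjusted p = 0.966) and 0.81 (adjusted p = 0.0183). For mir-891a it was 1.36 (edgeR adjusted p = 0.000901) and 2.80 (adjusted p = 0.006).

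The ratio of mir-15a to mir-16-1, the ERH-linked neighbours in DLEU2 on chromosome 13, moved little between the controls. As log2 of raw counts, which needs no scaling, it was -0.44 and -0.63 with siGFP and -0.61 and -0.78 with siControl, in replicates 1 and 2. The siControl value was below its siGFP partner by a mean of -0.16 (SD 0.0073, n = 2 pairs), and the groups overlapped. In the 3 siERH libraries the ratio was -2.04, -1.99 and -2.01. The counts of mir-16-1 were near those of its copy mir-16-2 on chromosome 3, 30771 and 30255 in siGFP replicate 1. These copies share their 5p arm, so the mir-16-1 counts may not be of the DLEU2 transcript alone. With 2 libraries against 2 no exact permutation test can reach 0.05.

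Several abundant families had members higher with siControl in the paired fit, and most of these calls were lost under other settings. With the GC trend of each library removed, no hairpin of the let-7, HOX, miR-130, miR-30, miR-26 or miR-103 lists passed, 1 of the miR-15 and miR-16 list did and 2 of the miR-374 list. On library totals, 1 let-7 hairpin was higher and 1 lower, no hairpin of mir-103 or mir-107 passed, and 2 to 4 hairpins of each of the other lists were higher. The counts and SEs that follow are those of the paired fit, whose variance is pooled over hairpins. Counts of called members are read against 9.86% of hairpins called higher and 8.36% called lower, and medians against a median log2 difference of 0.04 over all hairpins tested. These shares are not matched for abundance. Of the 72 higher hairpins 49 averaged at least 1000 counts, as did 18 of the 61 lower and 218 of all 730. An excess in a list of abundant hairpins is therefore overstated by the share of 9.86%. Of the let-7 and miR-98 list, whose miRNAs repress growth genes, 7 of 12 tested hairpins were higher and none lower. These were the copies of let-7a, let-7c, let-7e and let-7f. The let-7 differences differed between the replicates: the median log2 ratio of the list was -0.02 in replicate 1 and 0.66 in replicate 2. let-7a-1 had 2352 CPM with either siRNA in replicate 1, and 2025 CPM with siGFP and 3215 CPM with siControl in replicate 2. let-7e was higher in both replicates, with 482 and 241 CPM with siGFP and 590 and 504 CPM with siControl.

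The list of miR-15, miR-16 and their relatives, known repressors of cyclins, was above siGFP in both replicates for all 7 hairpins tested, and 4 were higher by the test. Its median log2 difference was 0.37. mir-195 had 123 and 458 CPM with siGFP and 234 and 702 CPM with siControl (log2 difference 0.76 ± 0.13). mir-15b had 2527 and 5911 CPM with siGFP and 3683 and 7689 CPM with siControl. In both hairpins the replicates differed more than the siRNAs did. mir-16-1 (0.37 ± 0.11) and mir-16-2 (0.37 ± 0.11) were the other called members and share their mature 5p arm.

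Hairpins of the list of miR-130, miR-301 and miR-454 had a median log2 difference of 0.44, and 4 of 5 were higher. mir-454 and mir-301a lie in SKA2 on chromosome 17. mir-454 had 858 and 1561 CPM with siGFP and 1267 and 2254 CPM with siControl, and mir-301a had 1504 and 5536 against 2320 and 6703. mir-130a and mir-130b were higher by 0.41 ± 0.11 and 0.44 ± 0.11 on the log2 scale. Of the list of miR-374, miR-545 and miR-421, encoded mostly in FTX, a non-coding gene of the X inactivation centre, 4 of 5 were higher, with a median of 0.62. mir-374a had 2788 and 4124 CPM with siGFP and 4283 and 6403 CPM with siControl, and mir-421 had 670 and 1467 against 1135 and 2219. mir-374b was higher by 0.62 ± 0.11. mir-374c, which overlaps mir-374b on the opposite strand, was higher by 0.59 ± 0.16, and reads of such a pair may be hard to assign.

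Mature arms of these families are shown to mark the seeds that recur among the higher hairpins.
hsa-let-7a-5p: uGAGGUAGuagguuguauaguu
hsa-miR-15b-5p: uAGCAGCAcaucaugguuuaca
hsa-miR-16-5p: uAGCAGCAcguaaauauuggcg
hsa-miR-130b-3p: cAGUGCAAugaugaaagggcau
hsa-miR-301a-3p: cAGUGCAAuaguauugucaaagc
hsa-miR-454-3p: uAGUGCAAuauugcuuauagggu
hsa-miR-103a-3p: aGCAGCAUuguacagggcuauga
Of the 9 tested names with the let-7 seed in the RefSeq table, 4 were called higher. For the seed of miR-15b and miR-16 it was 3 of 7 names, and for that of miR-130b, miR-301a and miR-454 it was 3 of 4. The last count leaves out miR-130a-3p, which the RefSeq table lacks. No name with these seeds was called lower. Over all 641 tested names, 58 had a copy called higher and 50 had a copy called lower. The seeds were picked because they recur among the higher calls, so these counts describe the calls and are no separate support.

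In the list of HOX cluster hairpins, 4 of 6 were higher: mir-10b, both mir-196a copies and mir-196b. mir-196a-1, in an intron of HOXB7, had 794 and 1053 CPM with siGFP and 1014 and 2122 CPM with siControl. mir-196b had 7305 and 7125 against 9575 and 9625 CPM, and mir-10a of the same list did not pass (log2 difference -0.02 ± 0.11). All 3 hairpins of mir-103 and mir-107 were higher, by 0.34 on the log2 scale at the median, as were 3 of 6 of the miR-30 list and 3 of 5 of the miR-26 and miR-101 list. The copies within these lists share mature sequences and are not independent.

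Some abundant lists had no called member. None of the 13 tested hairpins of the miR-17-92 cluster and its paralogues passed, which include the most abundant hairpins of these libraries. All 13 fitted log2 differences were above 0, 12 of them in both replicates, with a median of 0.18, and on library totals 10 were above 0. mir-92a-1 had 32410 and 34800 CPM with siGFP and 37260 and 36920 CPM with siControl (log2 difference 0.14 ± 0.11, edgeR adjusted p = 0.39). mir-17 had 20740 and 42300 CPM with siGFP and 25650 and 42870 CPM with siControl, and mir-20a (0.20 ± 0.11) and mir-19b-1 (0.20 ± 0.11) did not pass either. No hairpin of the miR-29 (4 tested) or miR-181 (6 tested) lists passed, although all 6 miR-181 hairpins were above siGFP in both replicates, mir-181a-1 and mir-181b-1 by a log2 difference of 0.13 each. Whether these lists differed from those with called members was not tested. Of the lists with lower members, the 3 copies of mir-7 were lower, with a median log2 ratio of -0.58 in replicate 1 and -0.12 in replicate 2. mir-7-1 had 10540 and 7160 CPM with siGFP and 7148 and 6711 CPM with siControl. Of 8 hairpins in introns of CLCN5, 2 were lower and none higher. With the GC trend removed none of the mir-7 or CLCN5 hairpins passed. With all 7 libraries, the miR-34 hairpins kept their 3 calls, whereas none of the called let-7, miR-15 and miR-16, miR-130, miR-374, HOX, miR-103, miR-30, miR-26, mir-7 or CLCN5 hairpins passed, although the sign of each list's median was the same.

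**Figure D4:**
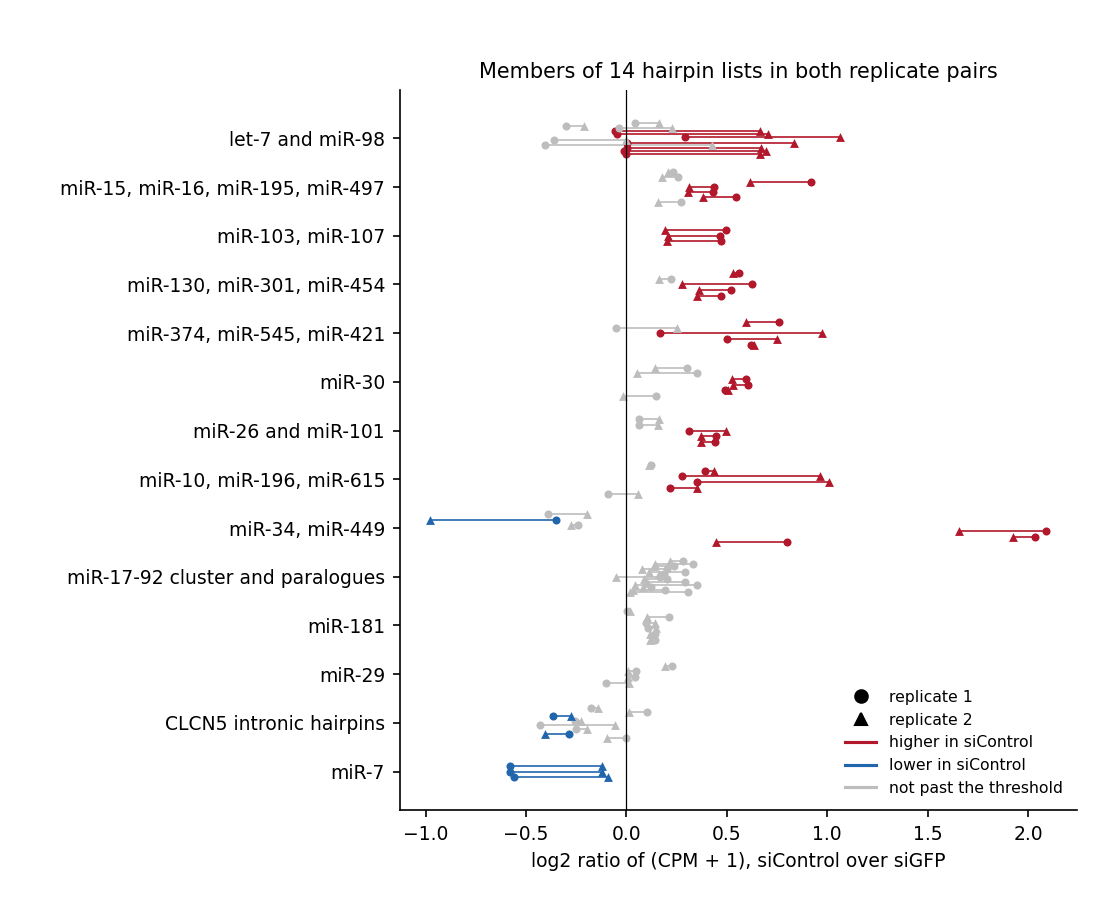
Log2 ratio of CPM + 1, siControl over siGFP (horizontal axis), for the tested members of 14 hairpin lists, 1 line a hairpin joining replicate 1 (circle) and replicate 2 (triangle), red or blue where the test with the block called it higher or lower. The lines of mir-34b and mir-34c lie farthest from 0, near 2, and the called let-7 lines other than let-7e start near 0 in replicate 1 and end farther right in replicate 2, where the list median was 0.66.

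Among the remaining hairpins lower with siControl, mir-216a, in an intron of MIR217HG on chromosome 2, had 87.7 and 117 CPM with siGFP and 49.4 and 71.2 CPM with siControl. Its neighbour mir-217 was lower too (log2 difference -0.51 ± 0.19). mir-146a, an inflammatory regulator, was lower by -0.78 ± 0.18 on the log2 scale, and mir-21 was the called member of the same immune list on the other side (0.39 ± 0.11), with the other 8 tested members not called. mir-7851 (-0.75 ± 0.18) was 1.5-fold or more apart in both replicates. The largest fitted decreases also included hairpins of few counts: mir-211 (5 to 27 counts), mir-5088 (10 to 53), mir-6842 (4 to 18), mir-4655 (4 to 27), mir-663b (10 to 38), mir-4761 (11 to 30), mir-224 (14 to 51) and mir-514a-1 (6 to 29), whose 3 copies had the same counts. Low increases were mir-3133 (7 to 23 counts), mir-1228 (15 to 50) and mir-5683 (16 to 33). None of these was called with all 7 libraries.

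No group of neighbouring hairpins had members called on both sides, but in most groups with a call only 1 member was called. Of 64 groups of hairpins within 10 kb on 1 strand with at least 2 tested names, 32 had a called member, of which 24 had 1 and 8 had at least 2, called the same way. In 5 of the 24 the members lay on both sides of 0. Over these groups 40 of 157 hairpins were called (25.5%), against 18.2% of all tested. The 8 were mir-34b with mir-34c, mir-199a-2 with mir-214, mir-374b with mir-421, mir-15b with mir-16-2, mir-216a with mir-217, let-7e with mir-125a, let-7a-1 with let-7f-1, and the CLCN5 hairpins.

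Calls in opposite directions differed in base composition and abundance. Hairpins lower with siControl had a median GC content of 59.1% and those higher 46.7%, against 53.0% over all tested. The median level was 127 CPM for the lower hairpins and 1346 CPM for the higher, against 40.3 CPM over all. Across the 729 hairpins with a GC value, the log2 ratio of siControl to siGFP had a Pearson r with GC of -0.085 in replicate 1 and -0.264 in replicate 2. The ratio of replicate 2 to replicate 1 had -0.234 within siGFP and -0.412 within siControl. With the GC trend of each library removed, 16 lower and 19 higher hairpins passed, and mir-34b, mir-34c, mir-548f-1 and mir-548f-4 were among them while mir-34a was not.

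**Figure D5:**
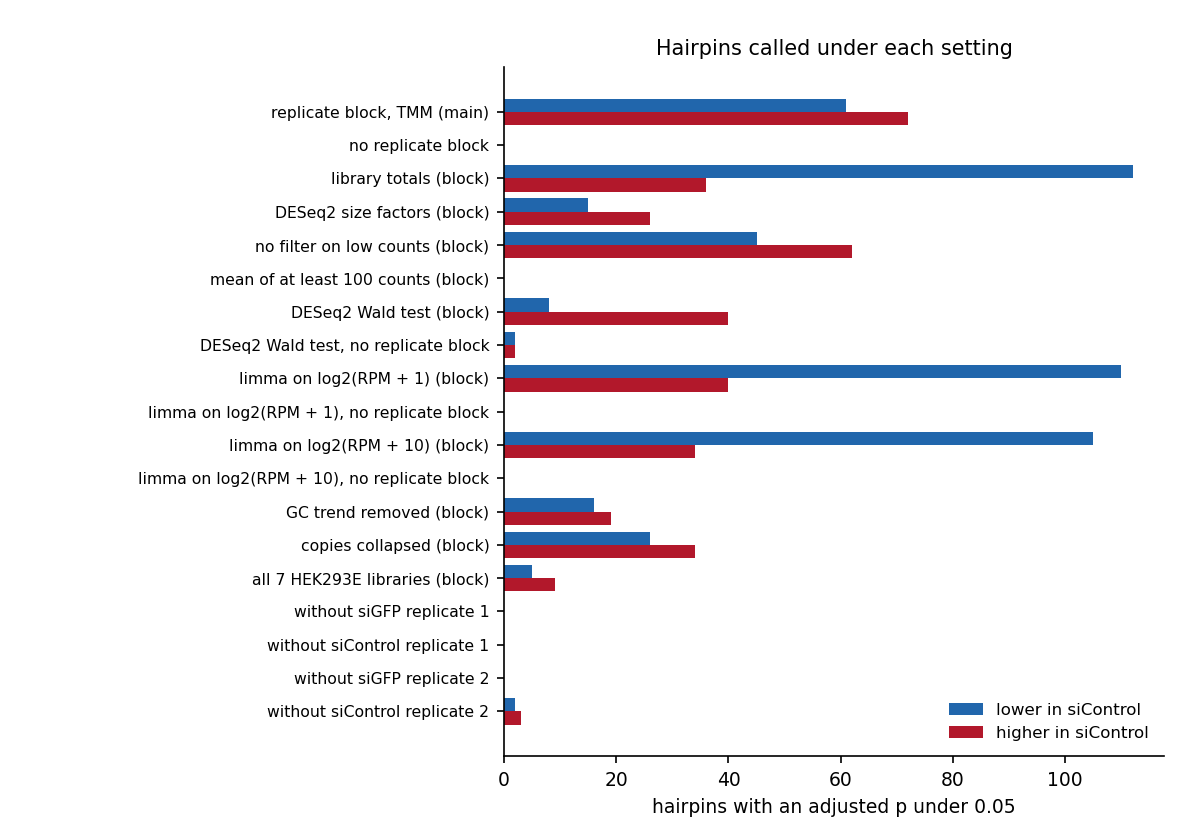
Number of hairpins with an adjusted p under 0.05 (horizontal axis) lower (blue) or higher (red) in siControl under each setting, with the fit reported here at the top. Counts run from 0 without the replicate block to 112 lower on library totals, and the fit of all 7 libraries gives 5 lower and 9 higher.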

How the data were processed

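Small RNAs of 18 to 30 nt were sequenced from HEK293E cells, with 30 spike-in RNAs added and adapters of 4 random nucleotides, per the labels' protocols. The authors deposited raw counts per hairpin, in which blank cells were read as 0, and RPM values, which the files show to be the count plus 1 over the library total plus 1485. The submitters' processing notes name cutadapt, Bowtie2, bedtools and hg38, and the handling of reads that match several copies is not given in the sources used here. Spike-ins were not used here.

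Hairpins that averaged 10 counts or more were scaled by TMM and tested with edgeR 4.0.16 (R 4.3.3), quasi-likelihood, siControl minus siGFP, with the replicate number as a block and Benjamini-Hochberg adjustment over all 730. The SE is the log2 difference over the square root of F. Same-numbered libraries deviated together (r = 0.728 for siGFP with siControl, 0.497 and 0.546 with siERH-3), and the labels give them the same experimental group. Within-pair ratios used CPM + 1, so they understate changes of low hairpins. Alternatives used DESeq2 1.42.0 and limma 3.58.1 (log2 of RPM + 1 or + 10), library totals, other filters, GC removal, collapsed copies, all 7 libraries and each library left out. Reads are not said to be counted by molecule, and the limit of 3 counts covers counting error only.

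The hairpins and lists were chosen with earlier results of these data known. Named hairpins are the largest called decreases and increases (10 each, and 5 each among those averaging 100 counts or more, 1 copy a name), called members of lists with at least 3 names called the same way, the 5 most abundant, and the blood and ERH-linked lists. mir-548f-2 to -5, mir-33b, mir-199a-1, mir-449a to -c, mir-145, mir-1, mir-7, mir-10a, mir-21, mir-103, mir-107, mir-217, mir-125a, mir-581 and mir-3161 were chosen after their values were seen. Coordinates and GC are from GENCODE release 29 (GRCh38), and mature sequences from RefSeq.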

Additional observations from a re-analysis of the deposited data

How the results depend on the processing

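Counts of calls depended on the processing. Of hairpins called lower and higher, 61 and 72 became 0 and 0 without the replicate block or at a mean of at least 100 counts (138 at an unadjusted p under 0.05), 112 and 36 on library totals, 15 and 26 with DESeq2 size factors, 8 and 40 with DESeq2, 2 and 2 with DESeq2 without the block, 110 and 40 with limma on RPM + 1, 105 and 34 on RPM + 10, 0 and 0 with either limma fit without the block (20 and 19 at an unadjusted p under 0.05), 16 and 19 with GC removed, 26 and 34 with copies collapsed and 5 and 9 with all 7 libraries. Leaving out each library in turn (tested with the siERH libraries, so a lone library is assumed to vary like the others) gave 0 to 2 lower and 0 to 3 higher (34 to 113 at an unadjusted p under 0.05), and the calls appeared only without siControl replicate 2: mir-34b, mir-34c, mir-143, mir-548f-1 and mir-548f-4. At least 2-fold apart, 13 lower and 7 higher became 0 and 0 without the block, at a mean of at least 100 counts or with limma without the block, 4 higher on library totals, 4 lower with DESeq2 size factors, 2 and 4 with DESeq2, 2 and 2 without its block, 3 higher with RPM + 1, 2 and 2 with RPM + 10, 3 lower with GC removed, 8 lower with copies collapsed, 3 lower with all 7 libraries, and 0 to 2 and 0 to 3 with a library left out. The 3 DESeq2 and limma fits without the block were added after seeing the data. The cause of these changes was not tested. Library totals shifted the median of all hairpins by -0.13 (log2) and made 75.7% of calls lower ones, against 45.9%.

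At least 1.5-fold apart in both replicates, 28 lower, 15 higher and 6 opposite became 6 lower and 0 opposite with CPM + 10, 9, 8 and 0 at a mean of at least 100 counts, and 3, 4 and 0 at 2-fold. The spread between replicates over that between siRNAs was 1.5 and became 1.72 at a mean of at least 100 counts. Without the block, siERH-3 against siGFP fell from 130 lower and 185 higher to 66 and 97, and against siControl from 112 and 181 to 58 and 104.

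With a library left out, log2 differences changed sign for hsa-let-7a-1 (-0.011 to 0.63), hsa-let-7a-2 (-0.0283 to 0.66), hsa-let-7a-3 (-0.0094 to 0.63), hsa-let-7c (-0.0042 to 0.79), hsa-let-7f-1 (-0.0159 to 0.62), hsa-let-7f-2 (-0.0263 to 0.58), hsa-mir-155 (-0.0098 to 0.31) and hsa-mir-451a (-0.38 to 0.0078), all without siGFP replicate 2, and for hsa-mir-17 (-0.11 to 0.39), hsa-mir-20a (-0.0634 to 0.41) and hsa-mir-19b-1 (-0.0317 to 0.37) without siGFP replicate 1. hsa-mir-144, at 0.0046, ran from -0.24 to 0.17 and was -0.0044 without the block, -0.12 on library totals, -0.13 on RPM + 1, -0.0848 on RPM + 10 and -0.0219 with GC removed. Over all settings of the named hairpins, 484 values kept their side, 586 lost the threshold, 2 gained it and 20 changed sign. The 14 hairpins called with all 7 libraries kept their direction in every setting that tested them. All settings reuse the control libraries in which these 14 were picked, so the kept direction is no independent check. With 2 libraries a group, the part of sequencing depth in the differences of hairpins near 10 counts was not tested.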
